A study of Mus musculus with 6 samples.

Results

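The Serpina1 and Serpina3 protease inhibitors of mouse liver were followed in RNA-seq counts of 6 livers. The members were the 10 rows of the count table with the symbols Serpina1a, Serpina1b, Serpina1c, Serpina1d, Serpina1e, Serpina3c, Serpina3g, Serpina3k, Serpina3m and Serpina3n, out of 40803 genes. All but Serpina3c, 9 of the 10, passed the filter on low counts and were tested. Serpina1e and Serpina3k rose when the long noncoding RNA Hnf1aos1 was targeted, the first by 1.79-fold and the second by 1.57-fold. Serpina3n had the highest fold change of the members, 3.53-fold, with 3 unequal treated livers, and did not pass the test.

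The study compared livers of C57BL6 mice that had received rAAV8-Scramble (3 livers) with livers of mice that had received rAAV8-Hnf1aos1 (3 livers). Both groups were male, were fed normally, and were injected through the tail vein at about 6 weeks of age with a recombinant adeno-associated virus of serotype 8, which enters mainly hepatocytes. In both groups the virus carried an EGFP reporter under the CAG promoter and a short hairpin RNA under the U6 promoter, which is active in any cell type. The hairpin was directed against the long noncoding RNA Hnf1aos1 or was a scrambled sequence. Livers were taken 4 weeks later, with 1 library per mouse and no pooling, and each group is 1 hairpin, so its effects on other transcripts cannot be told apart from those on Hnf1aos1.

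Gene counts summed to between 14704746 and 16532510 per library in the rAAV8-Scramble group and to between 18021614 and 19462398 in the rAAV8-Hnf1aos1 group. The 10 members took 2.39 to 2.60% of these counts in the first group and 3.20 to 3.53% in the second. Hnf1aos1 itself had 541 ± 69.5 (SD, n = 3) normalized counts with the scrambled hairpin and 323 ± 95.5 (SD, n = 3) with its own. The libraries held 512, 491 and 620.3 in the first group and 278, 258 and 433 in the second, so that Hnf1aos1 replicate 3 was the treated liver with the least reduction. This library also differed most from its group over all genes, with a mean chi-square per gene of 31.9 against replicate 1 and 22.5 against replicate 2, where these had 14.8 between them. The log2 fold change of Hnf1aos1 was -0.74 with a standard error of 0.195, and the adjusted p of edgeR's quasi-likelihood test was 0.0625, so the targeted RNA was lower in every rAAV8-Hnf1aos1 library without passing the test. A normalized count is here a raw count corrected for library size by edgeR's TMM factors, and adjusted p-values are Benjamini-Hochberg values over all 16327 genes tested, called under 0.05. In whole tissue, fewer cells of a type and less RNA per cell cannot be told apart.

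Serpins are suicide inhibitors. The target protease cuts an exposed reactive centre loop near the carboxy-terminal end of the serpin and is trapped there in a covalent complex, so the residues of the loop decide which protease is inhibited. Serpina1 encodes alpha-1-antitrypsin, the main plasma inhibitor of neutrophil elastase, and Serpina3 encodes alpha-1-antichymotrypsin, an acute phase protein. Both are secreted by hepatocytes. Humans have a single functional gene of each, while in the mouse both were duplicated, and the copies differ most in the loop.

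The Serpina1 copies are nearly the same sequence, which matters for what their counts can say. Over aligned coding bases of the GENCODE M21 annotation of GRCm38, the 10 pairs of Serpina1 copies were 96.3 to 98.5% identical and the 10 pairs of Serpina3 copies 80.4 to 91.7%, while a Serpina1 and a Serpina3 copy shared 56.9 to 59.2%. The stretch of 60 coding bases without gaps that differed at the most positions within the Serpina1 copies held 18 differing positions, 30.0% of its bases, against 11.9% over the whole alignment of 1308 positions, gaps counted as differences. It began at coding base 1101 of 1239 in 4 of the 5 copies, near the end that encodes the loop. These 5 stretches are shown because they are where the copies can best be told apart. They are read 5′ to 3′ from GRCm38, each lies within 1 exon, and capitals mark the positions at which the 5 copies are not all the same.
Serpina1a, chr12:103853757-103853816, minus strand: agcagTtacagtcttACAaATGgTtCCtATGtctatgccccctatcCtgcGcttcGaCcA
Serpina1b, chr12:103728324-103728383, minus strand: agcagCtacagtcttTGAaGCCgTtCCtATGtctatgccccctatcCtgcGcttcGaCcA
Serpina1c, chr12:103895094-103895153, minus strand: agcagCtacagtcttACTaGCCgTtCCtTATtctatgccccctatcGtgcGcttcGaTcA
Serpina1d, chr12:103763762-103763821, minus strand: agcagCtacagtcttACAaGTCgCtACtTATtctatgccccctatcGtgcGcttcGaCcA
Serpina1e, chr12:103947100-103947159, minus strand: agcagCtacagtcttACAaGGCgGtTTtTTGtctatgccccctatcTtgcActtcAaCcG

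The differing positions lie scattered over the stretch, with runs of shared bases between them. The matching stretch of the Serpina3 copies, chosen in the same way, held 30 differing positions, 50.0% of its bases. Over all 1356 aligned positions 67.5% differed, a share that counts the gaps left by the shorter Serpina3g sequence. This stretch was chosen without gaps, so its share cannot be set against that one. It began at coding base 1093 of 1254 in Serpina3m and Serpina3n. Serpina3g has a shorter annotated coding sequence of 744 bases, and its stretch began at coding base 487. Capitals mark the positions at which the 5 Serpina3 copies are not all the same.
Serpina3c, chr12:104147334-104147393, minus strand: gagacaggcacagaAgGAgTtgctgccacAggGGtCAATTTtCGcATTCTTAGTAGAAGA
Serpina3g, chr12:104241066-104241125, plus strand: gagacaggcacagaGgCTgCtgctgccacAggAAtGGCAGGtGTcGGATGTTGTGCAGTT
Serpina3k, chr12:104345263-104345322, plus strand: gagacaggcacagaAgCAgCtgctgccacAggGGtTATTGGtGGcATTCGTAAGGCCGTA
Serpina3m, chr12:104393763-104393822, plus strand: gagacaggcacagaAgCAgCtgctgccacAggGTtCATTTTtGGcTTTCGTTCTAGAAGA
Serpina3n, chr12:104413442-104413501, plus strand: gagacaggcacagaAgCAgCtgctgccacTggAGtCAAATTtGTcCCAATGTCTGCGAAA

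The capitals of the Serpina3 copies gather in the last part of the stretch, after a shared run of bases at its start. How much of each transcript belongs to 1 gene alone was counted in windows of 150 bases, as an index of how many reads could have been assigned. For Serpina1c, 40.3% of the windows were found in no other gene's transcript, and 612 of its 1212 windows were shared with Serpina1a. The share was 64.9% for Serpina1a, 76.7% for Serpina1d, 88.1% for Serpina1b and 92.6% for Serpina1e. The authors kept uniquely mapped reads, so read pairs lying wholly in sequence shared by Serpina1a and Serpina1c would have been counted for neither, and the levels of these copies are uncertain. Each Serpina3 copy reached 99.7% or more, so reads of the Serpina3 copies could nearly all be placed.

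**Figure D1:**
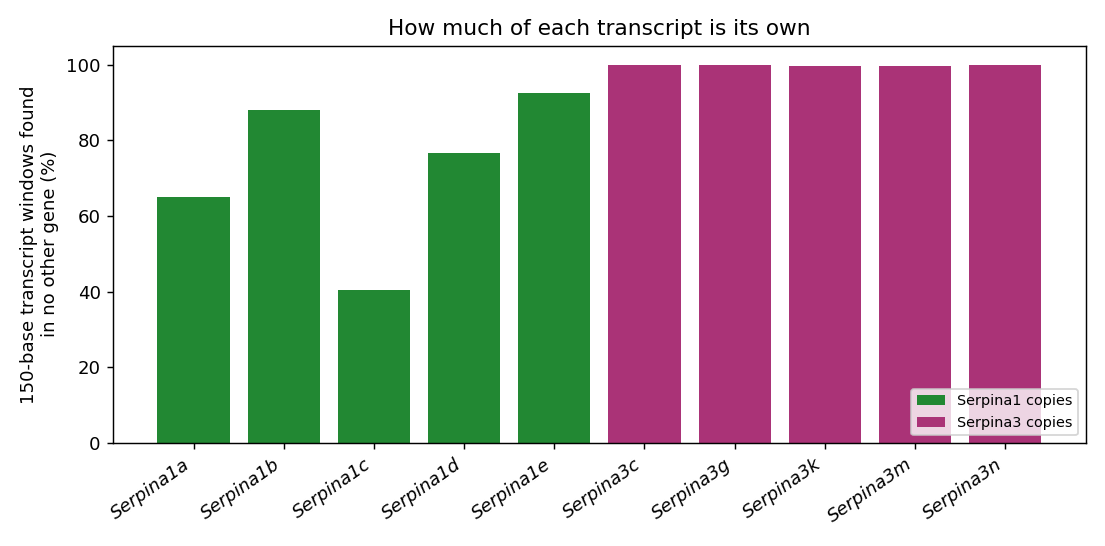
Share of the 150-base windows of each member's annotated transcripts (vertical axis, percent) that occur in the transcripts of no other gene, for the 5 Serpina1 copies (green) and the 5 Serpina3 copies (purple). Serpina1c, at 40.3%, and Serpina1a, at 64.9%, had the least sequence of their own, and the Serpina3 copies had 99.7% or more.

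All members lie in 1 serpin cluster on chromosome 12 (GRCm38, GENCODE M21). The Serpina1 copies, in the order Serpina1b (chr12:103728156-103830373), Serpina1d (chr12:103763594-103773592), Serpina1a (chr12:103853589-103863562), Serpina1c (chr12:103894926-103904887) and Serpina1e (chr12:103946931-103958975), are on the minus strand. Serpina3c (chr12:104146382-104153870) is also on the minus strand. Serpina3g (chr12:104236245-104241939), Serpina3k (chr12:104338486-104346144), Serpina3m (chr12:104338486-104394257) and Serpina3n (chr12:104406729-104414329) are on the plus strand. The annotated Serpina3m gene begins at the same position as Serpina3k, and the exons of the 2 genes share 60 bases. An antisense gene, B430119L08Rik, overlaps 429 exon bases of Serpina1c, 31.5% of them, and the strand setting of the counting is not given in the sources used here.

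RefSeq promoters, from 250 bases before to 50 bases after a gene's start on GRCm38.p6, were matched for 8 of the 10 members, all but Serpina3k and Serpina3m. The promoters of Serpina1d and Serpina1e are shown because these were the Serpina1 copies with the lowest and the highest fold change, and those of Serpina3g and Serpina3n because they were the Serpina3 copies with a promoter in the table that were tested. Capitals mark GTTAAT in the Serpina1 promoters, and TTCNNNGAA in Serpina3g, the core of a STAT site.
Serpina1d, chr12:103773584-103773883, minus strand: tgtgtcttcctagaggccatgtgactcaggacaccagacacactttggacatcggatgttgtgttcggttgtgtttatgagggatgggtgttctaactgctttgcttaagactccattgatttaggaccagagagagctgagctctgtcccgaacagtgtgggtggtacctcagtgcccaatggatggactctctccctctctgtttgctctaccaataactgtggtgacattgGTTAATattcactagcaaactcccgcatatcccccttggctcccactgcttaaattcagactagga
Serpina1e, chr12:103956848-103957147, minus strand: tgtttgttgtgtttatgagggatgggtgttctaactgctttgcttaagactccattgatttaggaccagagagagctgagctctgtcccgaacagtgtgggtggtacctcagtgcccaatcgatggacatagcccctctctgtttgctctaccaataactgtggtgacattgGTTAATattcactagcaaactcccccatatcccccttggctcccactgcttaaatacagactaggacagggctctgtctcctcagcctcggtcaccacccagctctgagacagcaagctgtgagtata
Serpina3g, chr12:104235897-104236196, plus strand: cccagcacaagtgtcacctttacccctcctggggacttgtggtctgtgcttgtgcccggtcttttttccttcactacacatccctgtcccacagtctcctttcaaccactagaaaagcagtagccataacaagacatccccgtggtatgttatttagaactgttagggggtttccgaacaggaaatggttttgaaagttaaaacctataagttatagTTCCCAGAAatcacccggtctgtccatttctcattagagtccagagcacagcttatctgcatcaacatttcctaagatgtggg
Serpina3n, chr12:104406458-104406757, plus strand: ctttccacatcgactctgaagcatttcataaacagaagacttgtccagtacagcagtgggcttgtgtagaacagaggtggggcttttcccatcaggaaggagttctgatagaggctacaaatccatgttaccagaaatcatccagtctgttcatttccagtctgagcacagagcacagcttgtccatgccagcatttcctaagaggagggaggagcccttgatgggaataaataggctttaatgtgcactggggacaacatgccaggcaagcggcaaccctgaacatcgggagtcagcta

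In Serpina1d and Serpina1e the capitals stand in the same surroundings but at different distances from the start. The motifs were searched on both strands. The first of them was found in all 5 Serpina1 promoters and in 1 of the 3 matched Serpina3 promoters, that of Serpina3c, against 7.1% of the 32851 promoters in the table. It began 16 bases before the start in Serpina1d, at -21 in Serpina1a, at -26 in Serpina1b, at -27 in Serpina1c and at -78 in Serpina1e, whose RefSeq start lies further downstream in the shared sequence. TTCNNNGAA was found in Serpina3g alone, at -33, and in 8.3% of all promoters. TTGCNNAA, a core of C/EBP sites, was found in 4 Serpina1 promoters, all but that of Serpina1c, in no Serpina3 promoter, and in 10.8% of all promoters. The interferon-stimulated response element core was not found in a member, while 3.44% of all promoters held it. The Serpina1 promoters were 91.7 to 98.4% identical over aligned bases in their 10 pairs, and the 4 pairs with Serpina1e were at 95.2 to 98.4%.

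Per length of transcript, Serpina3k was the most abundant member in every library. Its level in the deposited TPM values was 11289 ± 464 (SD, n = 3) in the rAAV8-Scramble group. It was followed by Serpina1e at 7807 ± 1503, Serpina1c at 5777 ± 551, Serpina1b at 5200 ± 225, Serpina1d at 3451 ± 82.3 and Serpina1a at 1738 ± 73.6 TPM. Serpina3m at 284 ± 31.1 and Serpina3n at 239 ± 24.4 TPM formed a much lower level. Serpina3g was lower still, at 6.32 ± 0.125 TPM, and Serpina3c, at 0.465 ± 0.623 TPM, was close to absent (all SD, n = 3). Of the neighbours in this order, Serpina1c with Serpina1b and Serpina3m with Serpina3n had overlapping ranges over the 3 livers, and the other neighbours did not. In the rAAV8-Hnf1aos1 group the order was the same but for Serpina3n, at 804 ± 413 TPM, which stood above Serpina3m, at 449 ± 152 TPM, again with overlapping ranges. Beside these, Serpina3k had 16840 ± 866 and Serpina1e 13327 ± 2243 TPM (SD, n = 3).

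**Figure D2:**
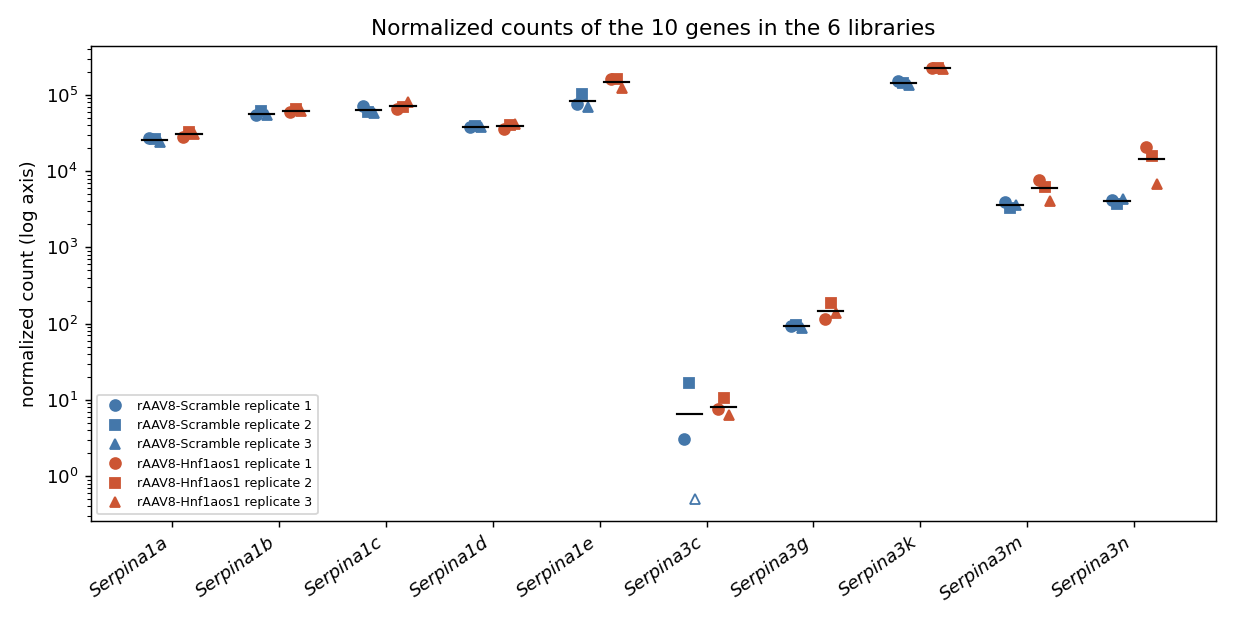
Normalized counts of the 10 members in each library (vertical axis, log scale), with 1 point per liver for the rAAV8-Scramble and rAAV8-Hnf1aos1 groups and a bar at each group's mean. The open triangle is a library without a Serpina3c count, drawn at 0.5. The groups do not overlap for Serpina1a, Serpina1e, Serpina3g, Serpina3k, Serpina3m and Serpina3n, and the 3 rAAV8-Hnf1aos1 points of Serpina3n are the most spread of the tested members.

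Of the 9 tested members, 2 were called higher and 0 lower by edgeR's quasi-likelihood test, against 3.09% of all 16327 genes called higher and 3.23% called lower. At an unadjusted p under 0.05 there were 6 members higher and 0 lower, where 23.4% of all genes passed in either direction. DESeq2 called 4 members higher and 0 lower, beside 632 higher and 603 lower of the 17367 genes it tested. None of the members passed both the adjusted p and a log2 fold change of 1, as 0.784% of all genes did in the higher direction. Every tested member had a log2 fold change above 0, and in 6 of the 9 every rAAV8-Hnf1aos1 library was above every rAAV8-Scramble library, as was the case for 15.2% of all genes tested. The called members were 1 of 5 Serpina1 copies and 1 of 4 tested Serpina3 copies. The median log2 fold change was 0.17 over the Serpina1 copies and 0.70 over the 4 Serpina3 copies, beside a median of all tested genes that lay within 0.001 of 0.

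Serpina1e had 75142, 102784 and 69758 normalized counts in rAAV8-Scramble replicates 1, 2 and 3. In rAAV8-Hnf1aos1 replicates 1, 2 and 3 it had 160523, 161625 and 121668. The groups did not overlap, and the lowest rAAV8-Hnf1aos1 library was 1.18 times the highest rAAV8-Scramble library, although scramble replicate 2 stood well above the other scramble libraries and Hnf1aos1 replicate 3 below its own group. The means were 82561 ± 17719 and 147938 ± 22758 (SD, n = 3). The log2 fold change was 0.84 with a standard error of 0.169, a 95% interval of 0.47 to 1.21 and an adjusted p of 0.0189 by edgeR's quasi-likelihood test. The call was lost when any of 4 libraries was left out: without scramble replicate 1 the adjusted p of the same edgeR test was 0.0609, without scramble replicate 3 it was 0.117, without Hnf1aos1 replicate 1 it was 0.0536 and without Hnf1aos1 replicate 2 it was 0.0687. The log2 fold change stayed between 0.73 and 1.02 when each library was left out.

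Serpina1a, the copy with the highest share of its sequence in common with Serpina1c, had 27297, 26332 and 24021 normalized counts in the rAAV8-Scramble libraries and 28355, 32988 and 30416 in the rAAV8-Hnf1aos1 libraries. These did not overlap, by a margin of 1.04-fold. Its log2 fold change of 0.24, with a standard error of 0.108, had an adjusted p of 0.207 in edgeR's quasi-likelihood test and was not called. The other 3 copies overlapped between the groups. Serpina1b went from 56899 ± 3331 to 61801 ± 2804 normalized counts (SD, n = 3), a log2 fold change of 0.12 with a 95% interval of -0.115 to 0.354. Serpina1c, with 63176 ± 6656 and 71280 ± 8227 (SD, n = 3), had a log2 fold change of 0.17 with an interval of -0.104 to 0.452. Serpina1d was the copy with the least difference, at 38199 ± 1269 and 39049 ± 2520 (SD, n = 3), a log2 fold change of 0.03 with an interval of -0.197 to 0.261. The intervals of these 3 copies and of Serpina1a, which reached 0.478, ended below the estimate for Serpina1e. The interval of Serpina1e itself began at 0.47, so it overlapped that of Serpina1a.

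The make-up of the Serpina1 counts within a library does not depend on how libraries are scaled. Serpina1e held 28.3, 35.5 and 28.5% of the summed Serpina1 counts in the rAAV8-Scramble libraries and 46.0, 43.9 and 36.3% in the rAAV8-Hnf1aos1 libraries. It was higher in all 3 rAAV8-Hnf1aos1 libraries, by a narrow margin for replicate 3, and an exact two-sided permutation test gave p = 0.1, the smallest that 3 against 3 allow. This test was run for the called copy alone and on the same counts, so it is no separate support for the call. The shares of the other copies add up to the rest. Serpina1b went from 21.4% ± 0.916 to 17.6% ± 0.673, Serpina1d from 14.4% ± 0.829 to 11.2% ± 0.972 and Serpina1a from 9.73% ± 0.595 to 8.72% ± 0.518 (SD, n = 3), each without overlap, while the share of Serpina1c overlapped.

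**Figure D3:**
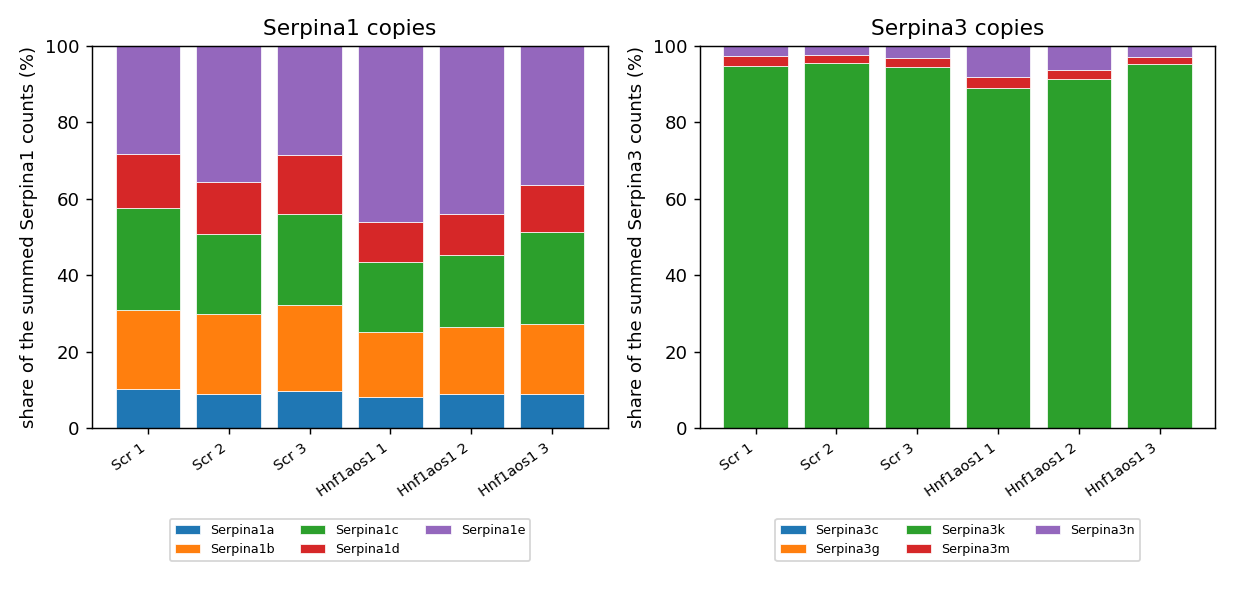
Make-up of the summed counts of the Serpina1 copies (left) and of the Serpina3 copies (right) in each library, in percent of the family's counts (vertical axes); each bar is 1 liver, Scr for rAAV8-Scramble and Hnf1aos1 for rAAV8-Hnf1aos1. Serpina1e takes 28.3 to 35.5% in the scramble libraries and 36.3 to 46.0% in the others, and Serpina3k takes at least 88.9% everywhere, with Serpina3c and Serpina3g too few to be seen.

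Serpina3k, known as contrapsin and one of the most abundant hepatocyte transcripts, showed the most even difference of the members. The rAAV8-Scramble libraries held 151185, 144921 and 133593 normalized counts. The rAAV8-Hnf1aos1 libraries held 228499, 228802 and 217702. All 3 of the latter were well above the former, the lowest at 1.44 times the highest scramble library, and within each group the livers lay close together. From means of 143233 ± 8916 and 225001 ± 6323 (SD, n = 3), the log2 fold change was 0.65 with a standard error of 0.113, a 95% interval of 0.404 to 0.899 and an adjusted p of 0.0105 in edgeR's quasi-likelihood test. The call was lost without scramble replicate 3, with an adjusted p of 0.0731 in the same edgeR test, and with a log2 fold change of 0.60. It was kept when any other library was left out, with log2 fold changes of 0.63 to 0.70.

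Serpina3n, the mouse copy best known as an acute phase and injury gene, had 4246, 3702 and 4290 normalized counts in the rAAV8-Scramble libraries. In rAAV8-Hnf1aos1 replicates 1, 2 and 3 it had 20692, 15725 and 6760. Replicates 1 and 2 stood far above the scramble libraries and replicate 3 only moderately, at 1.58 times the highest of them, so the groups did not overlap but the treated livers spanned 3.06-fold, against 1.16-fold with the scrambled hairpin. Replicate 3 was also the treated liver with the most Hnf1aos1 RNA, and the part of this in the Serpina3n values was not tested. The means were 4079 ± 327 and 14393 ± 7061 (SD, n = 3). The log2 fold change of 1.82, with a standard error of 0.436 and a 95% interval of 0.69 to 2.95, had an adjusted p of 0.0862 by edgeR's quasi-likelihood test. DESeq2 gave an adjusted p of 0.000518 and limma's voom 0.0199, both past the threshold. Without Hnf1aos1 replicate 3, edgeR's log2 fold change was 2.16 and its adjusted p 4.33e-07. Without any of the other 5 libraries it was not called, at edgeR adjusted p-values of 0.174 to 0.252 and with a log2 fold change of 1.45 without Hnf1aos1 replicate 1, nor was it with library totals (0.104) or without the filter on low counts (0.142).

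Serpina3m, the neighbour of Serpina3k in the cluster, had 3960, 3239 and 3652 normalized counts in the rAAV8-Scramble libraries and 7768, 6180 and 4056 in rAAV8-Hnf1aos1 replicates 1, 2 and 3. The order of the treated livers was that of Serpina3n, and replicate 3 was only 1.02 times the highest scramble library. The log2 fold change was 0.73 with a standard error of 0.222 and an adjusted p of 0.103 by edgeR's quasi-likelihood test. It was called by DESeq2, with an adjusted p of 0.00156, and by edgeR without Hnf1aos1 replicate 3, with a log2 fold change of 0.95 and an adjusted p of 0.000309. It was not called by voom (adjusted p of 0.076), by edgeR without the filter on low counts (0.286) or without any of the other 5 libraries (0.151 to 0.289), with a log2 fold change of 0.49 without Hnf1aos1 replicate 1.

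Serpina3g, an interferon-induced inhibitor that acts inside immune cells, was present at low level. It had 93.4, 96.6 and 88.0 normalized counts in the rAAV8-Scramble libraries and 114, 188 and 139 in the rAAV8-Hnf1aos1 libraries. The scramble livers were nearly equal and all treated livers were above them, with the highest in replicate 2 and not in replicate 1. Its log2 fold change was 0.67 with a standard error of 0.192 and an adjusted p of 0.0627 by edgeR's quasi-likelihood test, and the same edgeR test gave 0.0318 without Hnf1aos1 replicate 1 and 0.0446 without Hnf1aos1 replicate 3. Without any of the other 4 libraries the edgeR adjusted p was 0.123 to 0.232, and the log2 fold change was lowest, at 0.46, without Hnf1aos1 replicate 2. Serpina3g was called by edgeR without the filter on low counts (adjusted p of 0.00822). It was not called by DESeq2 (adjusted p of 0.0598), by voom (0.0992) or by edgeR with library totals (0.0844). Macrophage markers were also higher in the rAAV8-Hnf1aos1 group. Of these, 3 of 10 were called higher, beside 3.09% of all genes, and 8 of 10 were higher without overlap, beside 15.2% of all genes. Their summed normalized counts were 3545 to 4250 in the scramble libraries. In rAAV8-Hnf1aos1 replicates 1, 2 and 3 the sums were 5275, 5737 and 4559. Replicate 2 was the highest for these sums and for Serpina3g, while replicates 1 and 3 stood in opposite order. The summed neutrophil markers were at 47.2 to 72.6 and 81.5 to 128 normalized counts, with the defining markers Ly6g and Mpo at 0 counts in every library and only 1 of 10 past the filter. The part of these cell types in the Serpina3g values was not tested. Of the cholangiocyte markers, 4 of 6 were tested and 0 were called. Their log2 fold changes went both ways, with Krt19 at -1.03, Epcam at 0.35, Sox9 at 0.27 and Spp1 at 1.79. Spp1, the one with the highest counts, had 282 to 319 normalized counts in the scramble libraries. In rAAV8-Hnf1aos1 replicates 1, 2 and 3 it had 2161, 426 and 513, without a call at an edgeR adjusted p of 0.274. The hepatocyte markers summed to 1647000 to 1858600 in the scramble and 1865100 to 2101100 in the rAAV8-Hnf1aos1 libraries. Alb alone had 851305 to 949731 of these in the scramble and 820185 to 1052390 in the rAAV8-Hnf1aos1 libraries. Single markers went both ways: 2 of 10 were called higher and 1 lower, beside 3.09% and 3.23% of all genes. These were Fgb at a log2 fold change of 1.11, Ahsg at 0.52 and Tat at -0.72.

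Serpina3c was close to the limit of detection. It had raw counts of 3, 15 and 0 in the rAAV8-Scramble libraries and 8, 11 and 7 in the rAAV8-Hnf1aos1 libraries, and a count of 0 allows up to 3. The groups overlapped, and no difference was detectable at this depth.

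Summed over the copies, both families were higher in the rAAV8-Hnf1aos1 livers. The Serpina1 sum was 265922, 289742 and 244492 normalized counts in the rAAV8-Scramble libraries and 348831, 368228 and 334906 in the rAAV8-Hnf1aos1 libraries. The Serpina3 sum was 159487, 151976 and 141624 in the first and 257081, 250905 and 228664 in the second. Neither sum overlapped between the groups. These sums are unaffected by reads placed on the wrong copy of a family. Reads lying wholly in shared sequence would still be missing from them. Serpina1c, with 40.3% of its windows in no other gene, would lose more than Serpina1e, with 92.6%. Of the Serpina3 sum, 94.8% ± 0.515 and 91.8% ± 3.2 was Serpina3k, and Serpina3n went from 2.71% ± 0.299 to 5.76% ± 2.58 (SD, n = 3) with Hnf1aos1 replicate 3, at 2.96%, inside the scramble range.

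The Serpina3 copies were higher relative to the Serpina1 copies in the rAAV8-Hnf1aos1 livers. For each Serpina1 count there were 0.600, 0.525 and 0.579 Serpina3 counts in the rAAV8-Scramble libraries and 0.737, 0.681 and 0.683 in the rAAV8-Hnf1aos1 libraries. The groups did not overlap, with means of 0.568 ± 0.0389 and 0.700 ± 0.0317 (SD, n = 3) and a log2 difference of 0.30, which was 0.28 with sums of TPM. This ratio is given as a description without a test, as it is a sum over chosen members. Since Serpina3k makes up most of one sum and Serpina1e rose in the other, the ratio sets a mainly single-copy family against one in which 1 copy of 5 was called.

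Whether Serpina3n moved apart from the other members was tested in its ratio to each of the other 8 within a library. Against Serpina1a, Serpina1b, Serpina1c, Serpina1d and Serpina3m, 5 of the 8 pairs, the ratio did not overlap between the groups. The log2 ratio was higher in the rAAV8-Hnf1aos1 group by 1.65 against Serpina1d and by 0.99 against Serpina3m, with an exact two-sided permutation p of 0.1, the smallest that 3 against 3 allow, and 0.16 after Benjamini-Hochberg adjustment over the 8 pairs. Against Serpina1e, Serpina3g and Serpina3k the ratios overlapped, with log2 differences of 0.83, 1.04 and 1.02. Their exact permutation p-values were 0.3, 0.2 and 0.2, and the overlap came from Hnf1aos1 replicate 3 in each of these pairs. No pair could pass the threshold in a design of this size.

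Other clade A serpins, most of them in the same cluster, included further genes that rose. Of 18 listed, 16 were in the table and 10 were tested, and of these Agt and Serpina7 lie outside the cluster. By edgeR, 3 of the 10 were called, all higher, beside 3.09% of all genes called higher, and the median log2 fold change was 0.26. Serpina10, the protein Z-dependent inhibitor of coagulation factor Xa, went from 2169 ± 114 to 4896 ± 1199 normalized counts (SD, n = 3), a log2 fold change of 1.17 with a standard error of 0.168 and an adjusted p of 0.0079 by edgeR's quasi-likelihood test. Serpina12, the adipokine vaspin, went from 364 ± 50.0 to 728 ± 55.9, with an edgeR adjusted p of 0.00154. Serpina11 rose by 0.53 on the log2 scale, from 515 ± 22.4 to 743 ± 46.9, with an edgeR adjusted p of 0.00997. Serpina6, which encodes corticosteroid-binding globulin, was lower in all 3 rAAV8-Hnf1aos1 libraries, at 1785 ± 87.2 against 1101 ± 387 (SD, n = 3), without a call at an edgeR adjusted p of 0.151.

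The remaining clade A serpins added no call. Serpina3f, the nearest clade A gene before Serpina3g in the cluster, had normalized counts of 61.6, 51.6 and 39.6 in the rAAV8-Scramble and 69.6, 98.8 and 69.7 in the rAAV8-Hnf1aos1 libraries, a log2 fold change of 0.64 and an edgeR adjusted p of 0.129. Serpina9 had a log2 fold change of 0.74, Serpina3b of -0.20 and Serpina3h of -1.03, all at low counts and with adjusted p-values of 0.176 to 0.882 in edgeR. Agt, the angiotensin precursor and a serpin without inhibitory activity, had a log2 fold change of -0.15 with an edgeR adjusted p of 0.472, and Serpina7, the thyroxine-binding globulin, was at 0.00 with counts that varied widely within both groups. Serpina1f and Serpina16 had 0 counts in every library, and Serpina3a, Serpina3i, Serpina3j and Serpina5 had 16 counts or fewer and were not tested.

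**Figure D4:**
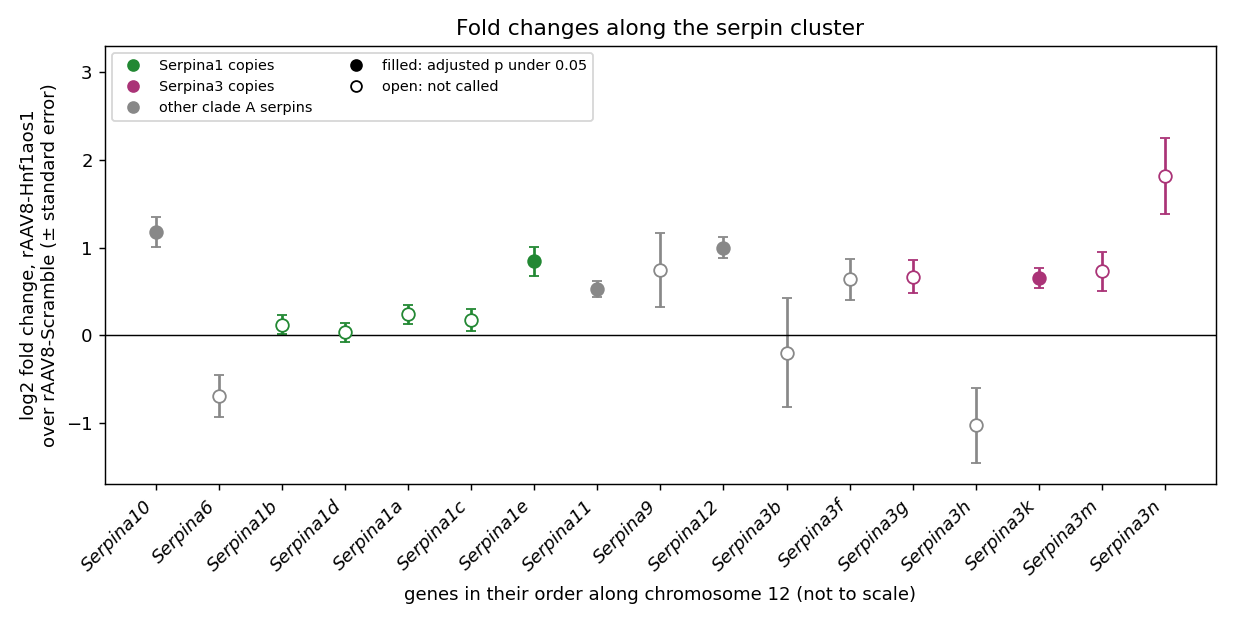
Log2 fold change of rAAV8-Hnf1aos1 over rAAV8-Scramble (vertical axis, with the standard error as bars) for the tested clade A serpins in their order along chromosome 12 (horizontal axis, not to scale). Filled points passed an adjusted p of 0.05 in edgeR's quasi-likelihood test and open points did not; Serpina10, Serpina1e, Serpina11, Serpina12 and Serpina3k are filled, and Serpina3n is the highest open point, at 1.82.

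Other inhibitors and proteases were read from lists, beside the 3.09% of all genes called higher. Of 8 other plasma serpins, all tested, 1 was called higher, with a median log2 fold change of 0.01. This was Serpinf2, alpha-2-antiplasmin, at a log2 fold change of 0.44 and an edgeR adjusted p of 0.0296. Of 14 tested plasma protease inhibitors of other families, 3 were called, all higher, with a median of 0.23. Pzp, at 0.45 with an edgeR adjusted p of 0.042, and Mug1, at 0.45 with an edgeR adjusted p of 0.0426, are abundant inhibitors of the alpha-2-macroglobulin family. The other, A2m, had only 2.13 ± 0.992 and 13.7 ± 3.89 normalized counts (SD, n = 3; edgeR adjusted p of 0.0205). Of 19 listed proteases, not all of them targets of these serpins, 9 were tested, 1 was called higher, and the median was 0.22. It was F11, coagulation factor XI, at a log2 fold change of 0.35 and an edgeR adjusted p of 0.0448.

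Acute phase and interferon signalling, which are known to induce Serpina3 copies in other settings, were read beside a background of 6.32% of all genes called in either direction. Of 14 tested genes of acute phase signalling, 3 were called higher and 1 lower, with a median log2 fold change of 0.47. Socs3, the feedback inhibitor of interleukin-6 signalling, went from 56.1 ± 4.06 to 242 ± 101 normalized counts (SD, n = 3), a log2 fold change of 2.11 with an edgeR adjusted p of 0.0169. Among the treated livers, Hnf1aos1 replicate 1 was the lowest for Socs3, at 130 against 325 and 272. It was the highest for Serpina3n, and a link between these genes was not tested. Il1r1, the interleukin-1 receptor, had a log2 fold change of 0.88 (edgeR adjusted p of 0.0347), and Nfkbia, the inhibitor of NF-kappa-B, fell by 0.72 on the log2 scale (edgeR adjusted p of 0.0087). Of 9 tested genes of interferon-gamma signalling, 4 were called, all higher, with a median of 0.31. Among them, the chemokine Cxcl10 had a log2 fold change of 0.89 (edgeR adjusted p of 0.0328) and the receptor chain Ifngr2 of 0.87 (edgeR adjusted p of 0.0233).

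Liver transcription factors and the secretory machinery were read beside the background of 3.09% of all genes called higher and 3.23% called lower. Of 12 transcription factors, Foxa3 was called higher, at a log2 fold change of 0.57 (edgeR adjusted p of 0.0445), and Bcl6, a repressor, lower, at -1.32 (edgeR adjusted p of 0.0377), with a median of 0.02. Of 21 genes of serpin folding, export and degradation, 2 were called, both higher, with a median of 0.25, and 12 were higher without overlap between the groups, as were 15.2% of all genes. These were Hsp90b1, a chaperone of the endoplasmic reticulum, at 0.51 (edgeR adjusted p of 0.027), and Edem2, which directs misfolded glycoproteins to degradation, at 0.43 (edgeR adjusted p of 0.046). Of 7 genes listed for the clearance of serpin complexes from the blood, Vldlr was called lower, at -1.94 (edgeR adjusted p of 0.00903). It went from 89.4 ± 17.2 to 23.2 ± 12.1 normalized counts (SD, n = 3). The median of the 7 genes was 0.07.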

How the data were processed

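Liver RNA of 6 mice was sequenced, 3 per group. Per the paper, the authors trimmed the reads and used STAR for alignment to GRCm38. The deposited raw counts are uniquely mapped reads on exons, from featureCounts. The labels list GRCm39, and they describe depletion of ribosomal RNA where the paper describes a stranded poly(A) kit. The annotation release and strand setting are not given in the sources used here. The authors also deposited TPM values, used here only to compare levels between genes. Their normalized counts and their table of log2 fold changes and p-values were not used.

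The 92 spike-in rows, 1.19 to 1.52% of the counts, were left out, and 40803 genes remained. In R 4.3.3, edgeR 4.0.16 (TMM, filterByExpr, robust glmQLFit, glmQLFTest, Benjamini-Hochberg) compared the groups with the group as the only term. The alternatives were DESeq2 1.42.0, limma 3.58.1 voom, other library scalings, no filter, a log2 fold limit of 1, the replicate number as a block, and each library left out. The biological coefficient of variation was 13.9%, so variation between livers and not depth limited the abundant members. With 1 library per mouse, this variation cannot be split into mouse and preparation. The p-values weigh the group difference against the spread between these livers. Same-numbered libraries did not deviate together. Pairs of libraries within a group differed by 7.73 to 31.9 per gene in chi-square, against about 1 for repeat reads of the same library. In tests on simulated data (3 sets of 16327 genes, 200 of them given a log2 change of 2), 92% of the altered genes were recovered by edgeR and 10.5% of its calls were false. That change exceeded the main edgeR estimate of every member, so this recovery does not carry over to changes of their size. Coding sequences were aligned with MAFFT 7.526, and figures drawn with matplotlib 3.10.9. Ratios used 0.5 added to each count.

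The members and all gene lists were chosen with earlier results of these data known. Beside all members and clade A serpins, every called gene of a list was named, or the 3 with the largest absolute log2 fold change where more were called; the genes most like a member had the smallest root mean square difference of centred log2 CPM (prior count of 2) over the 6 libraries. Some genes that these rules select are not reported here.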

Additional observations from a re-analysis of the deposited data

How the results depend on the processing

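The number of members called higher was 2 with edgeR's TMM, with DESeq2's size factors and with library totals, 4 with DESeq2, 3 with voom and without a filter on low counts, and 0 with a log2 fold change limit of 1. Library sizes from the spike-ins, an alternative chosen after seeing the data, gave 6, with the median of all genes shifted up by 0.20 and 3030 of all 16327 genes called higher and 364 lower. Leaving out each library gave 0 to 5 members, with 0 without scramble replicate 3 and 5 without Hnf1aos1 replicate 3. No member was called lower under any of these settings. Serpina1d, never called, changed sign with library totals (-0.040) and without Hnf1aos1 replicate 3 (-0.0022), in a range of -0.0022 to 0.076 over the libraries left out. The log2 difference of the Serpina3 to Serpina1 ratio was 0.25 to 0.34 with each library left out. With the replicate number as a block, 2 members were called and no member changed its call. Same-numbered libraries did not correlate (r of -0.0331 to 0.0332), which with 3 livers per group cannot exclude a pairing of the mice by number. Over all genes, 505 were called higher and 527 lower, and with each library left out 38 to 1015 and 65 to 866. The counts were 632 higher and 603 lower with DESeq2, and 435 higher and 466 lower with voom. With DESeq2's size factors in edgeR there were 490 higher and 542 lower. There were 319 higher and 729 lower with library totals, and 870 higher and 1032 lower without the filter. The fold limit left 128 higher and 224 lower. The cause of these shifts was not tested. With 3 livers per group, exact tests of a single value cannot go below 0.1.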

Other observations

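The genes whose profile over the 6 libraries came closest to that of a member were sought among 12912 tested genes with an average log2 CPM of at least 1. The measure was the root mean square difference between the log2 CPM profiles, each centred on its own mean, and it describes these 6 libraries only, which the genes share. Serpina3n came closest to Cpne8, at 0.119, Fgl1, a hepatocyte-secreted fibrinogen-like protein, at 0.143, and Atp11a, at 0.15, while its own root mean square variation was 0.971. Serpina3k came close to Dtwd1, at 0.0426, and to Sec61g, a subunit of the translocon through which secreted proteins enter the endoplasmic reticulum, at 0.0545, against an own variation of 0.332. For Serpina1e the closest were Mb21d2 at 0.0763, Ifngr2 at 0.115 and Utp23 at 0.118, with an own variation of 0.478. Serpina3m came closest to Tmprss2, Il18bp and Jrk, at 0.0833 to 0.0895, and Serpina3g to Dph7, at 0.0544. Serpina1a, Serpina1b, Serpina1c and Serpina1d varied little, and their closest genes, Banf1, Tmem127, Cacybp and Slc25a5, had distances of 0.0067 to 0.0207.

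Genes of neutrophil proteases, the textbook targets of alpha-1-antitrypsin, were barely detected, and those named here were chosen after their values were seen. Ctsg had 0 counts in every library, and Elane had raw counts of 0, 1 and 0 in the rAAV8-Scramble and 3, 8 and 0 in the rAAV8-Hnf1aos1 libraries. Prtn3, proteinase 3, had 1, 0 and 1 in the first group and 30, 33 and 4 in the second. It did not pass the filter on low counts and was not tested.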
